A study of Mus musculus with 4 samples.

Results

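DEAD and DEAH box RNA helicases were taken as every gene whose symbol is Ddx or Dhx followed by a number and, at most, a letter a or b, read by a probe set annotated with that gene alone. This gave 38 of the 12393 genes so named on the array, 27 called Ddx and 11 called Dhx, read by 77 probe sets. The rule reads symbols only. Ddx3x and helicases with other names, such as the Eif4a genes, fall outside it and are given beside the members. By known role, 12 of the 38 act in the nucleolus, 8 in the spliceosome and 18 elsewhere.

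Expression was measured in whole mouse lung on 4 Affymetrix arrays, each hybridised with RNA of 1 biological replicate. The wild-type group held 2 lungs described as normal, at embryonic day 18. The Sftpc-Nmyc group held 2 lungs, also titled day 18, from embryos with a transgene that fuses mouse Nmyc1 (now Mycn, a transcription factor of the MYC family) to EGFP under a 3.7 kb stretch of the human SFTPC promoter, a driver for cells of the lung epithelium. The transgenic embryos came from pronuclear injection of F2 eggs (C57BL/6J with DBA/2J) and were collected at day 18.5 by the design text, so embryos would carry insertions of their own. No age finer than day 18 and no strain is stated for the wild-type lungs.

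These proteins are named after a short amino acid motif in their ATP-binding core, Asp-Glu-Ala-Asp or Asp-Glu-Ala-His, and they spend ATP to open RNA duplexes or strip proteins from RNA. In the nucleolus they release small nucleolar RNAs and fold the precursor RNAs of the small and large ribosomal subunits. In the spliceosome each drives a particular step, from recognition of the branch site to release of the spliced message. MYC proteins are known as regulators of ribosome production.

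The arrays had median signals between 65.45 and 70.8. Mycn itself, by its brightest probe set, read 34.7 and 32.1 in wild type and 455.2 and 356 in the transgenic lungs. Another Mycn probe set was lower, at 78.7 and 63.5 against 25.1 and 27.2, and where each lies relative to the transgene was not determined. Xist, the RNA of the inactive X chromosome, read 1707.8 and 1506.1 in wild type and 59.3 and 63.9 in the transgenic lungs, so sex and genotype cannot be told apart. Cell type markers differed too. All 16 endothelial markers were lower, with summed normalized signals of 12093 and 13096 in wild type and 4782 and 4941 in the transgenic lungs. So were all 9 alveolar type II markers (34860 and 40647 against 9653 and 7683), 11 of 13 fibroblast markers (40083 and 42133 against 21789 and 21572), 7 of 11 macrophage markers (12384 and 14632 against 1926 and 1855) and all 7 tested cardiac markers (3011 and 1835 against 350.1 and 581.2, over 8 measured). General epithelial markers were higher in 7 of 12 (5788 and 6269 against 8877 and 9183), and S phase genes in all 16 tested (3513 and 2530 against 8667 and 9806, over 19 measured). The measured markers not tested, 1 cardiac and 3 S phase genes, were too dim. The part of these cell type differences in the results below was not tested, and in whole lung fewer cells of a type and less RNA per cell cannot be told apart.

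The start regions of the nucleolar and splicing members with the largest statistics are shown because these genes rose together and because MYC with MAX is known to bind the E-box CACGTG. The sequences run from 100 bases before to 10 bases after the RefSeq start, 5′ to 3′ on the gene's strand, on GRCm38.p6. Capitals mark the variant E-box CACGCG, on this strand or as CGCGTG on the other. The nucleolar helicases Ddx27 (chr2:167015213-167015322, + strand), Ddx10 (chr9:53248103-53248212, - strand), Ddx18 (chr1:121567971-121568080, - strand) and Ddx56 (chr11:6267720-6267829, - strand) come first, then the splicing helicases Dhx15 (chr5:52190537-52190646, - strand) and Ddx39b (chr17:35241646-35241755, + strand).
Ddx27: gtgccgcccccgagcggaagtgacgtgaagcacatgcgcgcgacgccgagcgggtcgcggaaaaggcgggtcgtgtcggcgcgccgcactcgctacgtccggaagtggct
Ddx10: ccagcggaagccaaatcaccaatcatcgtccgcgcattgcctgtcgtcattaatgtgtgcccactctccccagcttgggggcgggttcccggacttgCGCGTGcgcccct
Ddx18: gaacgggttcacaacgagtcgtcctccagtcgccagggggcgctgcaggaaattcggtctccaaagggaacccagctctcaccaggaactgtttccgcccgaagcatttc
Ddx56: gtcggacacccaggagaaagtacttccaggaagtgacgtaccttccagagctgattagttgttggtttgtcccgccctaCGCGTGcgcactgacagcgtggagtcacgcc
Dhx15: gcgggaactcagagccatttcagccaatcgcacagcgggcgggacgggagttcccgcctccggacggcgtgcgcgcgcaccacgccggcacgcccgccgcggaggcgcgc
Ddx39b: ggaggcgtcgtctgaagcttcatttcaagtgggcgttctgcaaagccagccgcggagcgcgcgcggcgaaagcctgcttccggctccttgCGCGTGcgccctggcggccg

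In these windows, taken from 250 bases before to 50 after a start and matched by symbol for 34 of the 38 genes, CACGTG was in none of the 12 nucleolar helicases. It lay in 1 of 7 splicing helicases (Ddx42) and in 4 of 15 others (Ddx4, Ddx5, Ddx25 and Dhx40). For scale, 7.15% of all 32851 windows and 12.1% of the 7027 tested genes with a window held it. The variant CACGCG, read on both strands, was in 5 nucleolar helicases (Ddx10, Ddx21, Ddx24, Ddx49 and Ddx56), 1 splicing helicase (Ddx39b) and 5 others (Ddx5, Ddx20, Dhx30, Dhx32 and Dhx40). It was in 9.27% of all windows and in 20.4% of the tested genes. In Ddx10 and Ddx56 its first base lay at -3 and -21, counted from the start, as in the sequences above. The 2 motifs differ by a base and do not overlap as strings, and a match says only that these letters are present. Ddx6, Ddx39a, Dhx38 and Dhx58 had no entry.

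Across the helicases the transgenic lungs had higher signals. Among the nucleolar, splicing and other-role classes, the nucleolar one had the largest median. Of the 34 helicase genes bright enough to test, 14 rose and none fell, and the median of their log2 fold changes (transgenic minus wild type) was 0.46. Over all 8675 genes tested, 14.7% rose and 15.7% fell (30.4% in either direction), and the median was -0.02. Values were positive for 31 of the 34 helicases and for 48.5% of all tested genes. Among helicases 8 of 12 nucleolar members rose (median 0.82), 3 of 7 tested splicing members (median 0.56) and 3 of 15 tested members of other roles (median 0.26). Within the other roles, the 2 mRNA export helicases, Ddx39a and Ddx19b, had a median of 0.92, and 1 of them rose. The nucleolar count includes Ddx27, which passed the filter on low signal only through the transgenic arrays. A gene counts as risen or fallen where limma's Benjamini-Hochberg adjusted p over all tested genes is under 0.05, on log2(signal + 5) after quantile normalization. Values after ± are standard errors, with n = 2 lungs per group throughout.

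The count of falls was 0 with limma, and among the negative values Ddx6 came nearest to the threshold (adjusted p = 0.053). The groups did not overlap in 28 of the 34, or 82.4%, against 68.1% of the tested genes as a whole. The difference between the role classes was not tested, since the members are not replicates of a condition. Measured from the wild-type mean, the nucleolar median shift was 0.90 on transgenic replicate 1 and 0.77 on replicate 2, the splicing one 0.51 and 0.56, and that of the other roles 0.26 and 0.25. The wild-type arrays lay within 0.088, 0.038 and 0.013 of their own mean on the same measure. Both transgenic arrays thus gave the same order of the classes. The order also held in all 13 alternative settings tried. Fewer helicases passed in every fit with 1 array left out, and so did fewer of all tested genes. The nucleolar median ran from 0.76 to 0.90 in those fits.

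**Figure D1:**
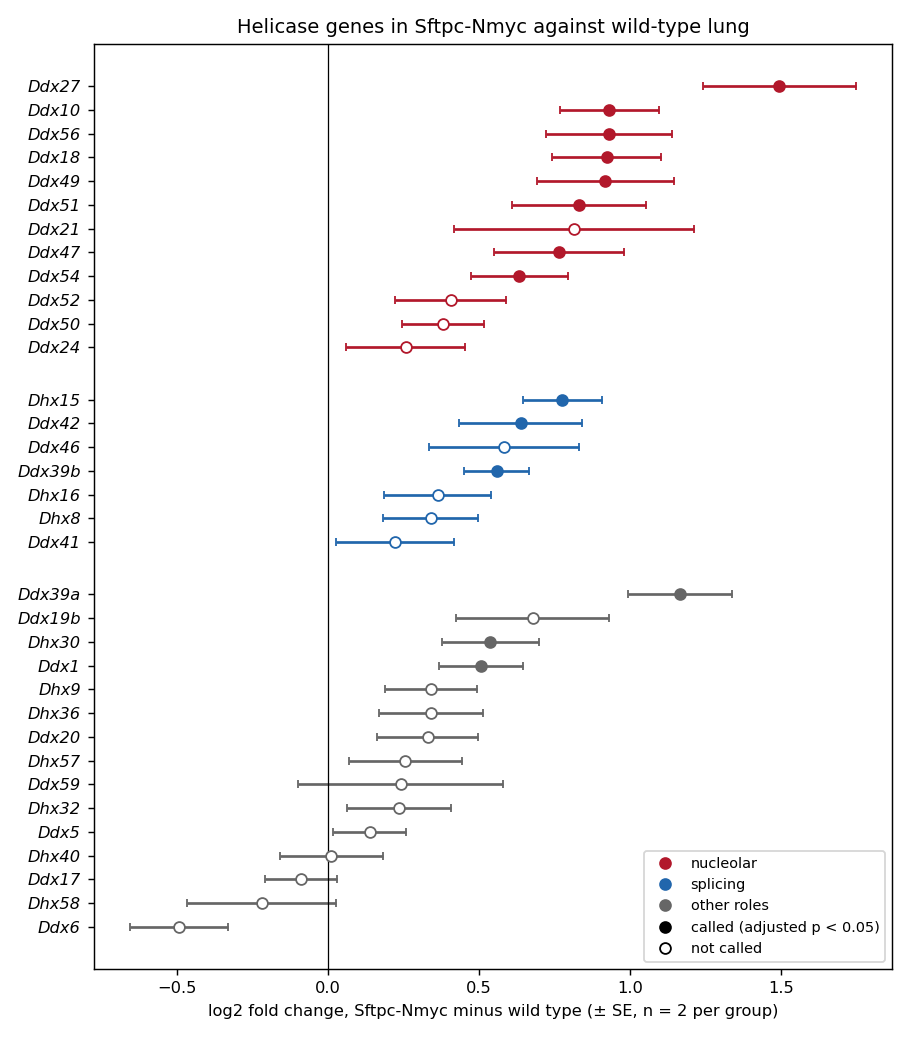
Log2 fold change (x axis, transgenic minus wild type, ± SE, n = 2 per group) of the 34 tested helicase genes, grouped by role, with filled points for genes that passed the test. All 12 nucleolar and all 7 tested splicing genes lie to the right of 0, and Ddx17, Dhx58 and Ddx6 lie to the left (Ddx17 at 0.041, to the right, after median centring).

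Of the 14 that rose, 4 did so whichever array was left out: Ddx27, Ddx10, Dhx15 and Ddx39a. Their highest adjusted p among those fits were 0.031, 0.039, 0.040 and 0.032. Only Ddx27 and Ddx39a rose by at least 1 on the log2 scale. Ddx27 had a wild-type level below the filter on low signal, so it was tested on account of the transgenic arrays. As a rough guide to background, 27 Bacillus control probe sets reached at most 73.4, and 9 of the 14 stood above it on all 4 arrays. The rest had at least 1 wild-type reading below it: the nucleolar Ddx27, Ddx49, Ddx51 and Ddx56, and the splicing helicase Ddx42. With no filter on low signal 5 calls ended: Ddx49 (adjusted p = 0.054), Ddx51 (0.063), Ddx47 (0.073), Dhx30 (0.063) and Ddx42 (0.105). Without limma's variance trend the calls of Ddx42, Ddx1, Ddx47 and Dhx30 ended (adjusted p from 0.050 to 0.074), and that of Ddx19b was gained (0.030). On values as deposited, with no quantile step, Ddx42 did not pass (0.057).

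Ddx27, which acts in maturation of the large subunit RNA, had the largest log2 fold change among the helicases when the brightest probe set stood for a gene. Its signals were 27.3 and 30.6 in wild type and 85 and 86.1 in the transgenic lungs, with a log2 fold change of 1.49 ± 0.25 (adjusted p = 0.0042). The replicates of each group lay close together and far from the other group. Its wild-type level lay below the filter on low signal, at a normalized signal of 37.2, so that it was tested on account of the transgenic arrays. It was the only tested helicase of which this was so, and the size of its fold depends on the offset, at 1.62 with 1 added and 1.24 with 16. With the mean of all probe sets Ddx27 was too dim to test, and Ddx49 (1.51, a dim probe set included) and Ddx39a (1.44) had larger values than in the reported fit. A second, dim probe set of Ddx27 read 32 and 14.2 against 5.6 and 17.7, with a log2 fold change of -0.68 ± 0.49, and did not pass.

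Of the other factors of the large subunit, Ddx18, the counterpart of yeast Has1, read 145 and 113.5 in wild type and 265.5 and 229.2 in the transgenic lungs. Its log2 fold change was 0.92 ± 0.18 (adjusted p = 0.0076). Its dimmer probe sets gave 1.09 ± 0.31 and 0.44 ± 0.37 without passing over all probe sets. Ddx51, which helps remove the U8 small nucleolar RNA, went from 46.7 and 45.6 to 79.6 and 84 (0.83 ± 0.22, adjusted p = 0.026). Ddx56 went from 61.5 and 76.8 to 120.2 and 142.7 (0.93 ± 0.21, adjusted p = 0.013). In these 3 genes both transgenic lungs were above both wild-type lungs, and groups that did not overlap were found in 68.1% of all tested genes. Ddx54, counterpart of yeast Dbp10, went from 184.4 and 200.5 to 276.2 and 327 (0.63 ± 0.16, adjusted p = 0.022). Its other probe set gave 0.69 ± 0.17 and did not pass over all probe sets (adjusted p = 0.057). Ddx24, counterpart of yeast Mak5, did not pass, at 194.6 and 283.1 against 285 and 276.5 (0.26 ± 0.20, adjusted p = 0.36). There the second wild-type lung read as high as the transgenic ones, and without wild-type replicate 1 the value was -0.012.

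Left-out arrays ended several of these calls. Ddx18 did not pass without wild-type replicate 2 (adjusted p = 0.058). Ddx56 did not without wild-type replicate 1 (0.062) or transgenic replicate 2 (0.080). Ddx54 passed only without transgenic replicate 1, with adjusted p of 0.11, 0.071 and 0.12 without wild-type replicate 1, wild-type replicate 2 and transgenic replicate 2. Ddx51 passed in none of the 4 fits, at adjusted p of 0.069 and 0.067 without wild-type replicates 1 and 2, and 0.095 and 0.12 without transgenic replicates 1 and 2. Its log2 fold change in those fits stayed between 0.80 and 0.85, and why the call ended was not tested.

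Of the 4 factors of the small subunit 3 rose. Ddx10, counterpart of yeast Dbp4, read 109.3 and 100 in wild type and 211.9 and 194.4 in the transgenic lungs. Its log2 fold change was 0.93 ± 0.16 (adjusted p = 0.0049). Its other probe set gave 0.70 ± 0.19 and did not pass over all probe sets (adjusted p = 0.081). Ddx49, counterpart of yeast Dbp8, went from 48.2 and 55.1 to 106.7 and 89.1 (0.92 ± 0.23, adjusted p = 0.019). Ddx47, counterpart of yeast Rrp3, went from 222.5 and 222.2 to 482.4 and 305.3 (0.76 ± 0.21, adjusted p = 0.031). Its wild-type lungs were nearly equal, while the transgenic lungs differed from each other by more than the gap between the lower of them and wild type. Dim probe sets of Ddx47 gave 0.05 ± 0.37 and -0.27 ± 0.25 without passing over all probe sets. Ddx52, counterpart of yeast Rok1, did not pass, at 90.5 and 103.5 against 119.1 and 136.5 (0.41 ± 0.18, adjusted p = 0.13). Its groups did not overlap there, which was so for 68.1% of all tested genes. They overlapped by its other probe set, at 78.5 and 93.4 against 102.7 and 82.3 (0.14 ± 0.22, not passing over all probe sets). Ddx49 did not pass without wild-type replicate 1 (adjusted p = 0.073) or transgenic replicate 1 (0.12). Ddx47 passed only without transgenic replicate 2, with adjusted p of 0.13, 0.14 and 0.14 without wild-type replicate 1, wild-type replicate 2 and transgenic replicate 1, and without transgenic replicate 1 its value was 0.44.

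Ddx21, which couples ribosomal RNA transcription to processing, and its paralogue Ddx50 lie next to each other in the RefSeq gene order. The brightest probe set of Ddx21 read 48.7 and 107.9 in wild type and 169.3 and 95 in the transgenic lungs, and did not pass (0.81 ± 0.40, adjusted p = 0.16). The groups overlap there, since wild-type replicate 2 read above transgenic replicate 2. Its other probe set read 47.4 and 47.8 against 132.3 and 126.6, with close replicates and a log2 fold change of 1.40 ± 0.20 that passed over all probe sets (adjusted p = 0.017). With the mean of both probe sets Ddx21 passed at 1.11 (adjusted p = 0.018), and with the brighter one alone it passed without wild-type replicate 2 (1.45, adjusted p = 0.020). The other left-out arrays did not give a call: the value was 0.23 without wild-type replicate 1 (adjusted p = 0.68), 0.40 without transgenic replicate 1 (0.56) and 1.21 without transgenic replicate 2 (0.081). Ddx50 read 420.9 and 382.7 against 537.3 and 520.1 and did not pass (0.38 ± 0.14, adjusted p = 0.069). Ddx50 had groups that did not overlap, which was so for 68.1% of all tested genes. It passed after median centring in place of quantile normalization (0.46, adjusted p = 0.035).

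**Figure D2:**
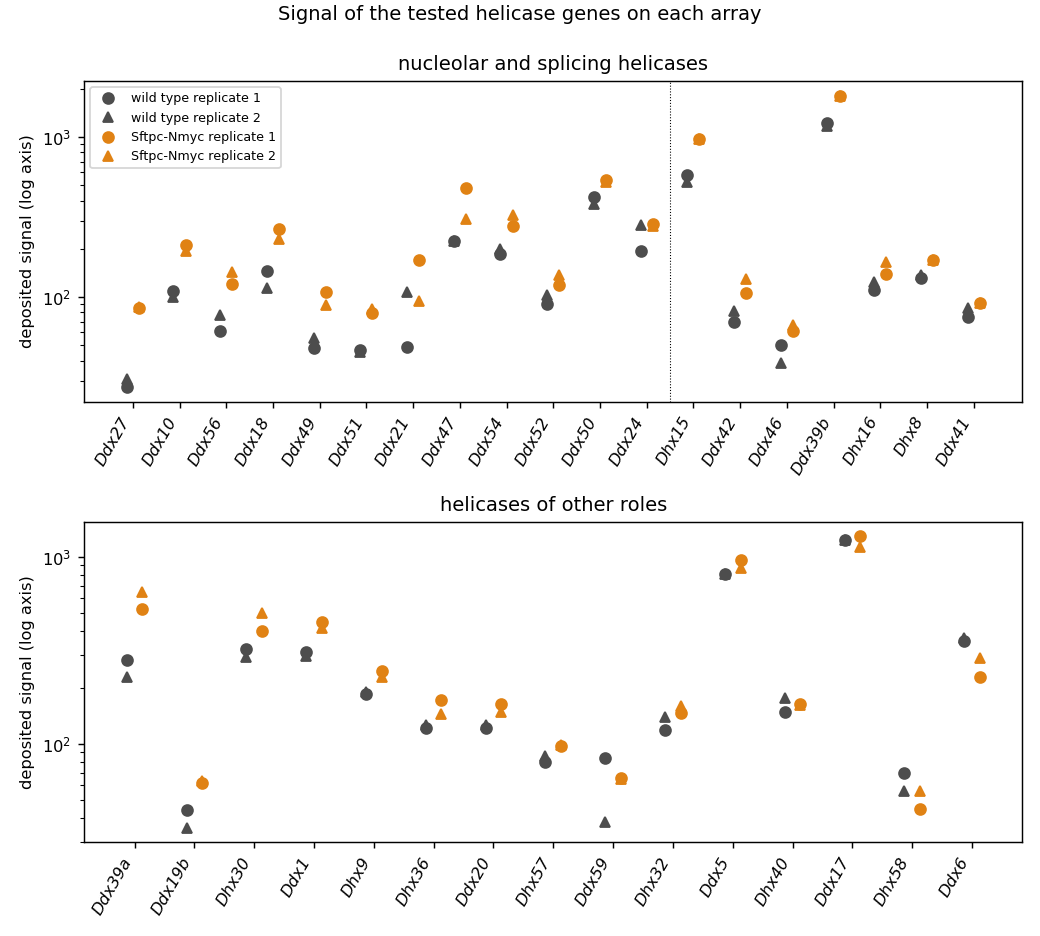
Deposited signal (y axis, log scale) of each tested helicase gene on the 4 arrays, wild type in grey and Sftpc-Nmyc in orange, circles for replicate 1 and triangles for replicate 2, with nucleolar genes left and splicing genes right of the dotted line. The transgenic points of Ddx27 (85 and 86.1) stand clear of the wild-type points (27.3 and 30.6), while the points of Ddx21 interleave.

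Of the 7 tested splicing helicases 3 rose, and their largest value was that of Dhx15. This helicase takes the spent spliceosome apart and is also known to work in ribosome assembly. Its signals were 580.4 and 520.2 in wild type and 966.8 and 969 in the transgenic lungs, with a log2 fold change of 0.78 ± 0.13 (adjusted p = 0.0040). Its second probe set rose as well, from 270.9 and 235.4 to 574.7 and 469.4 (1.01 ± 0.14, adjusted p = 0.017 over all probe sets). Both probe sets separate the groups by more than their replicates differ. Ddx39b, also known as UAP56, which helps the U2 particle bind and couples splicing to export, went from 1219.6 and 1167.7 to 1809.5 and 1812.1 (0.56 ± 0.11, adjusted p = 0.0072). It did not pass without wild-type replicate 2 (adjusted p = 0.057) or with the mean of its 3 probe sets (0.42, adjusted p = 0.083). Ddx42, which associates with the U2 particle, went from 69.6 and 81.8 to 105.4 and 128.9 (0.64 ± 0.20, adjusted p = 0.048). That call sat at the threshold. It ended whichever array was left out, at adjusted p of 0.17 and 0.077 without wild-type replicates 1 and 2, and of 0.077 and 0.23 without transgenic replicates 1 and 2.

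The other tested splicing helicases had positive values that did not pass. Ddx46, counterpart of yeast Prp5, read 49.9 and 38.7 in wild type against 61.5 and 66.9 (0.58 ± 0.25, adjusted p = 0.11). Another Ddx46 probe set with the same mean deposited signal gave 1.09 ± 0.30, and a dimmer one 0.42 ± 0.30. Neither passed over all probe sets. Dhx16, counterpart of yeast Prp2, read 110.5 and 124.8 against 138.8 and 164.6 (0.36 ± 0.18, adjusted p = 0.16). Dhx8, counterpart of yeast Prp22, read 130.5 and 137.3 against 169.3 and 169.4 (0.34 ± 0.16, adjusted p = 0.14). In these 3 and in Ddx41 the groups did not overlap, which was so for 68.1% of all tested genes. Ddx41, a component of the catalytic spliceosome, read 75 and 84.8 against 91.2 and 91.1 (0.22 ± 0.20, adjusted p = 0.42). Dhx38, counterpart of yeast Prp16, was too dim to test, at 19.9, 19.5, 16.1 and 66.2, and a single transgenic array held its only reading above 20.

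Among the remaining roles the mRNA export helicase Ddx39a stood out in size. It read 280.1 and 228.7 in wild type and 524.2 and 647.9 in the transgenic lungs, with a log2 fold change of 1.16 ± 0.17 (adjusted p = 0.0025). Of its 5 probe sets 4 passed over all probe sets, at 1.16, 1.61, 1.66 and 1.96, and the dimmest gave 0.82 without passing. Ddx39a and the splicing factor Ddx39b are close paralogues, and 3 of these probe sets carry the suffix _x_at, which marks probes that can match related transcripts. The probe set that stands for Ddx39a does not carry it. Ddx19b, which strips proteins from messages at the nuclear pore, did not pass, at 44.2 and 35.6 against 61.8 and 63.2 (0.68 ± 0.25, adjusted p = 0.078), and its other 2 probe sets gave -0.41 ± 0.31 and 0.09 ± 0.43.

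The other 2 that rose were Dhx30 and Ddx1. Dhx30, which works in assembly of the mitochondrial ribosome, read 319.8 and 291.1 in wild type and 401.6 and 498 in the transgenic lungs (0.54 ± 0.16, adjusted p = 0.038). Its 3 dimmer probe sets scattered around 0, from -0.35 to 0.20, and with the mean of its probe sets the value was 0.11 (adjusted p = 0.78). Dhx30 passed only without transgenic replicate 1, with adjusted p of 0.098, 0.17 and 0.20 without wild-type replicate 1, wild-type replicate 2 and transgenic replicate 2. Ddx1, a partner of the tRNA ligase, read 310 and 293.4 against 447.5 and 418.4 (0.51 ± 0.14, adjusted p = 0.028). Its replicates were close, yet it passed in none of the fits with 1 array left out: adjusted p were 0.083 and 0.12 without wild-type replicates 1 and 2, and 0.11 and 0.071 without transgenic replicates 1 and 2.

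None of the 4 transcription coregulators passed. Dhx9, also called RNA helicase A, read 184 and 189.7 in wild type and 246.7 and 227.6 in the transgenic lungs (0.34 ± 0.15, adjusted p = 0.13). Ddx20, part of the SMN complex that builds the small nuclear particles of the spliceosome, read 121.1 and 125.9 against 163.4 and 147.2 (0.33 ± 0.17, adjusted p = 0.17). The groups of both genes did not overlap, which was so for Ddx5 too and for 68.1% of all tested genes. Ddx5 and Ddx17, the paralogues p68 and p72, which also act in microRNA processing, stood at 0.14 ± 0.12 (adjusted p = 0.42) and -0.09 ± 0.12 (adjusted p = 0.60). Their signals ran from 806.2 to 956.8 and from 1122 to 1285.5 over all 4 arrays. The sign of Ddx17 turned, to 0.041, after median centring.

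Ddx6, the helicase of P-bodies that holds messages back from translation and sends them to decay, had the most negative value. It read 356 and 366.7 in wild type and 227.2 and 286.7 in the transgenic lungs, with a log2 fold change of -0.49 ± 0.16 that did not pass (adjusted p = 0.053). Both transgenic lungs were lower than both wild-type lungs, and groups that did not overlap were found in 68.1% of all tested genes. Its other 2 probe sets were also negative, at -0.10 ± 0.12 and -0.41 ± 0.18. It passed as lower when genes under the 50th percentile were left out (adjusted p = 0.045) and without transgenic replicate 2 (-0.66, adjusted p = 0.041). It did not pass without wild-type replicate 1 (-0.51, adjusted p = 0.16) or transgenic replicate 1 (-0.33, adjusted p = 0.24). Without wild-type replicate 2, where another of its probe sets was the brightest, it was at -0.20 (adjusted p = 0.46). Dhx36, which unwinds G-quadruplexes in messages, read 122.3 and 126.8 against 171.5 and 144.7 (0.34 ± 0.17, adjusted p = 0.17).

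The rest showed little. Dhx58, the antiviral sensor also called LGP2, read 69.9 and 56.2 in wild type against 44.8 and 56.3 (-0.22 ± 0.25, adjusted p = 0.54). Ddx59, Dhx32, Dhx40 and Dhx57 had values from 0.01 to 0.26 with adjusted p from 0.33 to 0.97. Ddx59 was read at 84 and 38.3 in the wild-type lungs and at 65.6 and 65.2 in the transgenic ones, so its wild-type spread covered the comparison. Too dim to test were the antiviral Ddx60 (1.6 to 4.5), the germ cell helicase Ddx4, or Vasa (0.3 to 7.8), and Ddx25 of the testis (24.4 to 51.9).

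**Figure D3:**
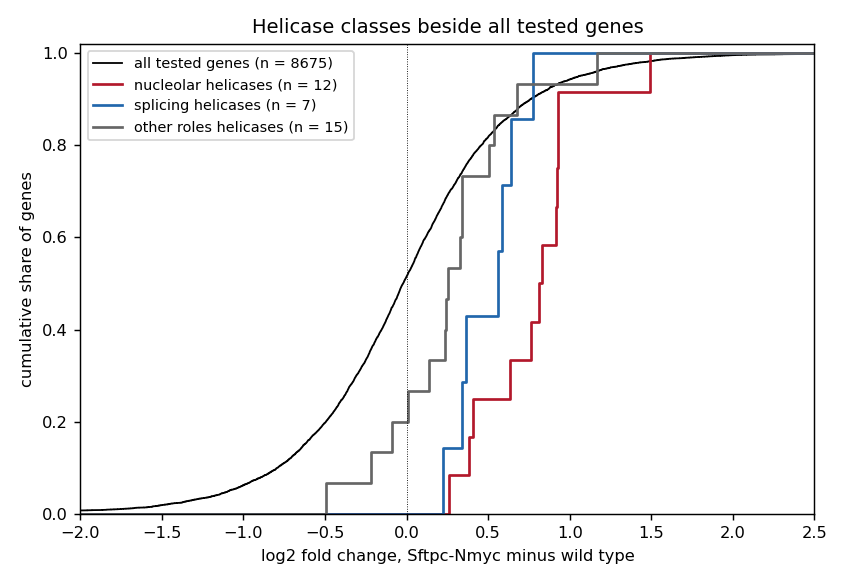
Cumulative share of genes (y axis) by log2 fold change (x axis, transgenic minus wild type) for all 8675 tested genes in black and for nucleolar (red, n = 12), splicing (blue, n = 7) and other-role (grey, n = 15) helicases. The helicase curves lie to the right of the black one over most of the range, with medians of 0.82, 0.56 and 0.26 against -0.02.

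Genes read by more than 1 probe set show how far a value depends on the probe. Of the 77 helicase probe sets, 14 rose and none fell in a fit over all 20380 probe sets with a single symbol and no filter on low signal, where 6.79% rose and 6.16% fell. These 14 belonged to 10 genes. Among the 21 helicases with several probe sets, 14 had probe sets of a single sign and 7 had both signs (Ddx5, Ddx17, Ddx19b, Ddx27, Ddx47, Dhx9 and Dhx30). No helicase had probe sets that passed in opposite directions. For Ddx49 the dim probe set passed, at 3.8 and 3.9 against 27.9 and 33.4, but its wild-type readings lie under the added offset of 5 and all 4 readings are in the range of the Bacillus controls, so its size is not given. The brighter one did not pass in that fit, at 0.92 ± 0.23 (adjusted p = 0.065).

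**Figure D4:**
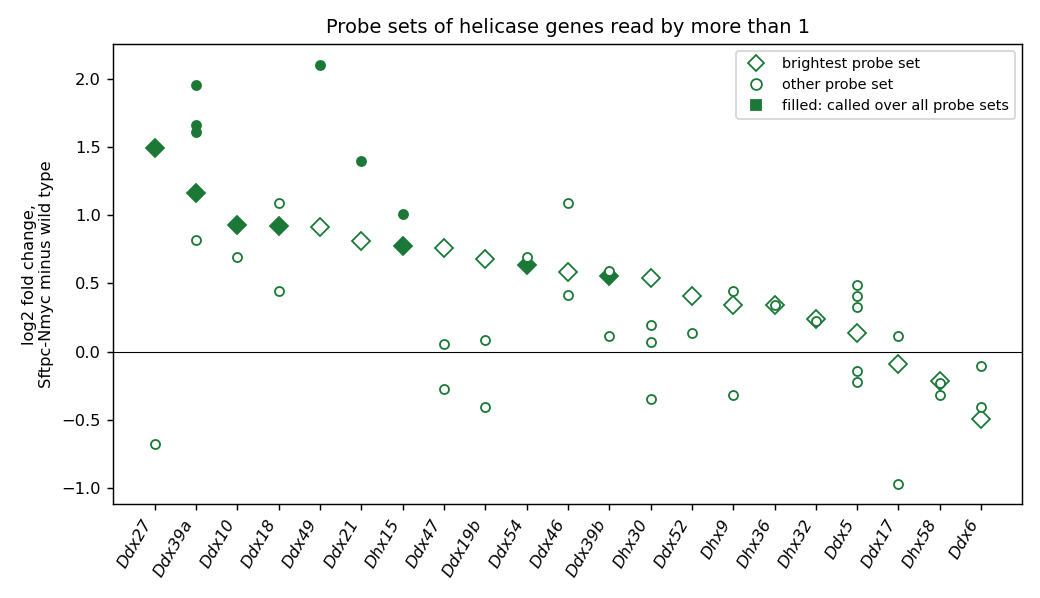
Log2 fold change (y axis, transgenic minus wild type) of every probe set of the 21 helicase genes read by several, with a diamond for the brightest probe set, circles for the others and filled symbols for those that passed over all probe sets. Ddx39a has 4 filled symbols between 1.16 and 1.96, while Ddx27 has a filled diamond at 1.49 and an open circle at -0.68.

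The other genes of the same pathways, from lists written for this comparison, were set beside the helicases. In the small subunit processome, the particle in which Ddx10, Ddx47, Ddx49 and Ddx52 work, 22 of 31 tested genes rose and none fell (median 0.72). Fbl, the methyltransferase of box C/D particles, rose by 2.00 ± 0.17, while Utp3 was at -0.11 ± 0.23. Rrp9 of the U3 particle rose from 11.7 and 22.6 to 166.7 and 204.1, and Tsr1 from 22 and 20.7 to 134.8 and 121. Both had wild-type readings below the filter and were tested on account of the transgenic arrays, so no size is read from their folds. In large subunit assembly 23 of 33 rose and none fell (median 0.94), among them the chaperone Npm1 at 1.5 ± 0.10, Gnl3 at 1.93 ± 0.16 and Rrs1 at 2.05 ± 0.19. Rbm28 was furthest against it, at -0.35 ± 0.17 without passing. The share that rose was thus 71.0% and 69.7% in these lists and 66.7% in the nucleolar helicases, all against 14.7% of tested genes. The 71.0% counts Rrp9 and Tsr1, and the 66.7% counts Ddx27, which were tested on account of the transgenic arrays. No share was computed without such genes. Fbl, Gnl3 and Rrs1 had larger values than any helicase gene in this fit.

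In the spliceosome core 20 of 44 tested genes rose (45.5%) and none fell, with a median of 0.40, beside 3 of 7 splicing helicases (42.9%). The Sm protein Snrpg rose by 0.96 ± 0.12, Snrpa1 of the U2 particle by 1.47 ± 0.18 and Snrnp40 of the U5 particle by 1.33 ± 0.17. Slu7, which acts at the second step, was at -0.38 ± 0.14 without passing. Among G-patch proteins and other helicase cofactors 5 of 15 rose and none fell, but the median was 0.03: Noc2l, also on the large subunit list, rose by 1.38 ± 0.17, Rbm17 by 0.95 ± 0.17 and Surf6 by 0.98 ± 0.24, and Agfg1 was at -0.54 ± 0.18 without passing.

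Of 13 tested RNA helicases with other names 1 rose and none fell (7.69% higher), with a median of 0.19. Values were positive for 10 of the 13, against 48.5% of all tested genes. The 1 that rose was Mtrex, the helicase that feeds RNA to the nuclear exosome and thus trims ribosomal RNA as well, at 0.65 ± 0.18 (adjusted p = 0.028). Upf1 of nonsense-mediated decay, at 0.65 ± 0.25, and the viral sensor Ifih1, at -0.56 ± 0.21, did not pass.

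**Figure D5:**
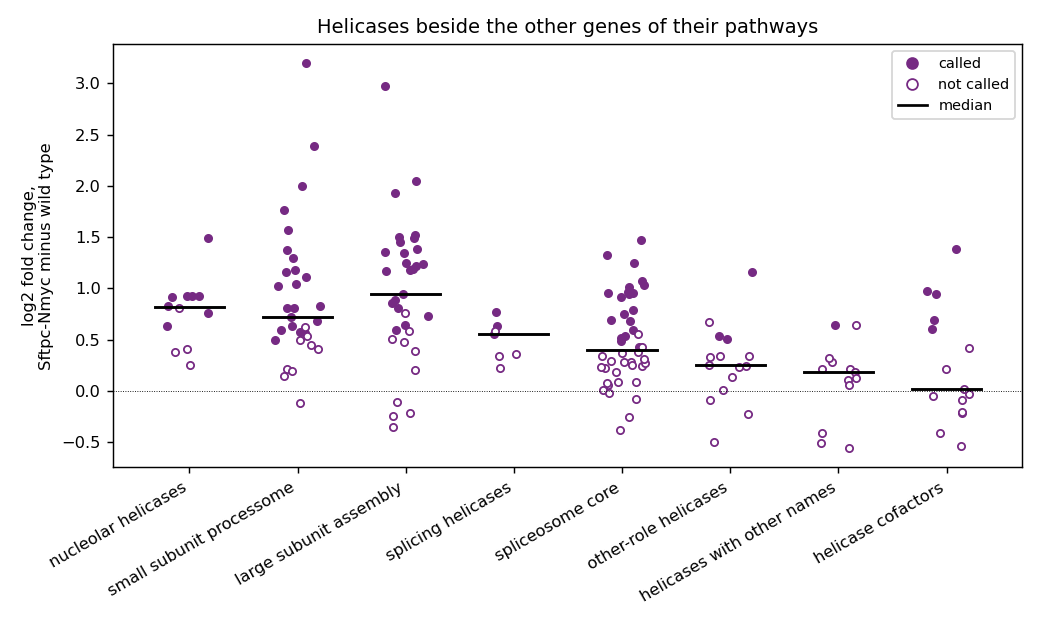
Log2 fold change (y axis, transgenic minus wild type) of each tested gene in the helicase classes and in the pathway lists, with filled points for genes that passed, open points for those that did not and a bar at the median. Nucleolar helicases (0.82) sit near the small subunit (0.72) and large subunit (0.94) lists, and helicases with other names (0.19) sit near the helicases of other roles (0.26).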

How the data were processed

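The deposited values are linear Affymetrix intensities for 22690 probe sets on each of 4 arrays. How the authors summarised, background-corrected and scaled them was not given in the sources used here. Over each array the mean without the highest and lowest 2% was 150.05. Such values carry no read depth, so the number of arrays limits the precision.

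Names come from GEO's platform annotation, in which 20380 probe sets had 1 symbol, 691 several, 1555 none and 64 were controls. All 38 helicase symbols matched the RefSeq table of GRCm38.p6. Values under 1 were set to 1, 5 was added, the base-2 logarithm taken and the arrays quantile normalized without controls. The probe set with the highest mean stood for a gene, and genes under the 30th percentile were left out. Group was the only term in limma 3.58.1 (R 4.3.3), with a variance trend. The code was tested on simulated data.

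Every helicase was named. From each pathway list the 3 genes with the largest statistic and the 1 most against the list's median were named. The helicases, roles, lists and motifs were chosen with earlier results of these data known. Offset, filter, normalization, probe set rule, variance trend, replicate block and each array left out were varied.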

Additional observations from a re-analysis of the deposited data

How the results depend on the processing

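The order of the medians (nucleolar, then splicing, then other helicases) held in all 13 alternatives, with ranges of 0.73 to 0.90, 0.42 to 0.57 and 0.23 to 0.36. Of 430 values of single helicases under the alternatives, 378 kept their direction and side of the threshold, 42 lost the call, 6 gained it and 4 changed sign without passing: Ddx17 after median centring (0.041), Ddx24 and Dhx40 without wild-type replicate 1 and Ddx59 without wild-type replicate 2. With 1 array left out these last ran from -0.012 to 0.522, from -0.13 to 0.155 and from -0.27 to 0.764. Only the 14 helicases that rose in the reported fit could lose a call. The 378 also count values of helicases that passed in neither fit, so they overstate how stable the calls were.

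With no filter 9 helicases rose, 5 of them nucleolar, and the median of the other roles was 0.29. Of all 12393 genes in that fit, 1026 rose and 1043 fell. With the filter at the 50th percentile 5 of 9 nucleolar helicases left to test rose, 1 of the other roles fell and their median was 0.33. Of the 6197 genes tested there, 1139 rose and 1212 fell. The splicing and other-role medians were 0.49 and 0.23 with an offset of 16, 0.50 and 0.23 on values as deposited, and 0.42 and 0.23 with the mean of all probe sets. After median centring that of the other roles was 0.30. The cause was not tested.

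Wild-type and transgenic lungs of the same replicate number did not deviate together (r = -0.04), and no label says that the numbers pair lungs. With the replicate block 1 helicase of the other roles rose instead of 3, 11 in all and 8 nucleolar, and 2218 genes passed. Median centring left 57.2% of calls higher, against 48.4% in the reported fit.

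Leaving out 1 array at a time, where the lone array of a group is assumed to vary like the others, gave 1379 to 1906 genes that passed (2636 with all arrays). Helicases that rose numbered 6 to 9 and that fell 0 to 1, nucleolar 3 to 5, splicing 1 to 2, and other roles 1 to 2 risen and 0 to 1 fallen. The splicing median ran from 0.46 to 0.57 and that of the other roles from 0.25 to 0.36.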
